A study of Homo sapiens with 11 samples.

Results

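The zinc finger genes of chromosome 19 were taken as the protein-coding genes on that chromosome whose symbol is ZNF followed by a number and which had at least 100 counts summed over all 11 libraries. This rule uses total abundance and no difference between groups. It kept 196 of the 249 protein-coding ZNF genes listed on chromosome 19. Of the remainder, 39 had 1 to 99 counts and 14 had none. The deposited table lists 58735 genes, of which 36039 had a count. All 196 passed the filter on low counts and were among the 18368 genes tested.

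RNA was sequenced from HEK293T cells, a line derived from human embryonic kidney, to describe gene expression governed by URM1, a ubiquitin-like protein modifier, and by NAE1 and UBE2M, which the study proposes as its activating and conjugating enzymes. Cells were harvested 48 h after transfection with Lipofectamine RNAiMAX. The siNAE1 group received 50 nM of siRNA to NAE1 (n = 3), the siUBE2M group 70 nM to UBE2M (n = 3) and the siURM1 group 60 nM to URM1 (n = 2), beside a control group (n = 3). The control libraries are labelled as control siRNA, and the study's methods name a non-targeting siRNA as negative control, whose dose in these libraries is not given in the sources used here. A figure legend of the study codes the control group as HKWT, so whether these cells were transfected is not settled here, and a fold change against control may include the effect of transfection. The doses differ between the knockdowns. The labels call the libraries of a group biological replicates without naming separate cultures or days, so p-values measure the spread between these libraries only.

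C2H2 zinc finger proteins carry arrays of short finger units in which 2 cysteines and 2 histidines hold a zinc ion, and each finger contacts a few bases of DNA. Many also carry a KRAB box, which binds the corepressor TRIM28. TRIM28 in turn brings in the histone methyltransferase SETDB1 and HP1 proteins, and this machinery is known for silencing transposable elements. The genes expanded by tandem duplication, so that on chromosome 19 they stand in clusters of related neighbours.

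The repeating unit that defines the family is shown for ZNF471 and ZNF85, the member with the largest decrease after siNAE1 and the only member that passed the test at a halved level or lower in every knockdown. Each line is the genomic sequence that codes for 1 finger and the linker to the next, on the plus strand of GRCh38. The positions are chr19:56524689-56524766 for ZNF471 and chr19:20949124-20949201 for ZNF85. Capitals mark only the codons of the cysteines and histidines that hold the zinc ion. A further histidine codon of ZNF471 is in lower case.
ZNF471: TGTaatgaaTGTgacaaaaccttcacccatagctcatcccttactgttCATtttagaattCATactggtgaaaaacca
ZNF85: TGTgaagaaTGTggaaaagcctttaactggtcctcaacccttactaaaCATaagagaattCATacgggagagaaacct
Over the 196 genes, 2429 matches to the C2H2 finger pattern were found in the translated GENCODE v44 coding sequences, between 1 and 31 per gene with a median of 12. The 31 fingers belonged to ZNF91, a repressor of SVA retrotransposons. The linker TGEKP between fingers occurred 1100 times in 165 of the genes, and 139 matched the KRAB pattern used here. That pattern requires a tryptophan near the start of the box, so a gene without a match may still carry a KRAB domain.

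Promoters are shown for 4 members whose decreases recur below, because members with and without the letters GGGCGG, on either strand, are compared further on. ZNF85 and ZNF134 belong to the members with the letters, and ZNF416 and ZNF146 to those without. The sequences are the 250 bases before the RefSeq transcription start on GRCh38, written 5′ to 3′ on the strand of the gene, with GGGCGG or its complement in capitals: ZNF85 at chr19:20923001-20923250 (plus strand), ZNF134 at chr19:57613992-57614241 (plus strand), ZNF416 at chr19:57578912-57579161 (minus strand) and ZNF146 at chr19:36214856-36215105 (plus strand).
ZNF85: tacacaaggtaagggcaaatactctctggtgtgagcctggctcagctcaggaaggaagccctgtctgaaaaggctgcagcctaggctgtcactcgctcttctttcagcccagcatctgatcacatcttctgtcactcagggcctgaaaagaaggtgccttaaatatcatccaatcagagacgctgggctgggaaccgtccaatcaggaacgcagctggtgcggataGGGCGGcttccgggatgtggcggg
ZNF134: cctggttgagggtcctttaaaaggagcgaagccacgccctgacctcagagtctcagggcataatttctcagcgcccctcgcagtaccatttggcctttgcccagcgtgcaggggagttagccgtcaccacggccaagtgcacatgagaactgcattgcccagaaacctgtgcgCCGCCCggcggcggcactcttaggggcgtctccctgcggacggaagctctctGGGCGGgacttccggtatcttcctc
ZNF416: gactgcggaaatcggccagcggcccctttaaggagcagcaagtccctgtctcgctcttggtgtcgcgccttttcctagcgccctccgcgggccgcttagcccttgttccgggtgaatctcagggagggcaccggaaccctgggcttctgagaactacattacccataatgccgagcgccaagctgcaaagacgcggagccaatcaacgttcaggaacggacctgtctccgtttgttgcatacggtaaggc
ZNF146: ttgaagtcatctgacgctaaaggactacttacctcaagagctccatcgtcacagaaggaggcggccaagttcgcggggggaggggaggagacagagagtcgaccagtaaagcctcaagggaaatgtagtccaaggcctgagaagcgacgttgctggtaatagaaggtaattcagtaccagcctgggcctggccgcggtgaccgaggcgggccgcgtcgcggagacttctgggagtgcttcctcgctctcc
The ZNF134 promoter held 2 matches and that of ZNF85 held 1, and the promoters of ZNF416 and ZNF146 held none, also in the 50 bases after the start that the comparison includes.

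Library totals ranged from 11733163 to 16321391 counts. The targeted genes fell in their own group: NAE1 by 1.36, UBE2M by 3.98 and URM1 by 1.80 on the log2 scale, the spread of counts between replicates being 7.06% (the common biological coefficient of variation). Mitochondrial genes held 4.12% to 5.72% of counts. Markers of the HEK293T line were present, with PAX2, NEFL, NEFM, INA and LIN28B at mean levels of 10.0 to 88.7 CPM (counts scaled to library size) in the control libraries. Their levels were not equal in all groups. The mean for PAX2 was 10.0 CPM in control, 9.49 after siNAE1 and 5.35 after siUBE2M, and its 2 siURM1 libraries held 18.3 and 19.7 CPM. In control, siNAE1, siUBE2M and siURM1 the mean was 59.2, 99.3, 67.0 and 61.9 CPM for NEFL, and 78.0, 178, 71.8 and 178 for NEFM. It was 65.0, 40.5, 47.5 and 80.2 CPM for INA, and 88.7, 105, 50.4 and 81.8 for LIN28B. Of the liver markers, ALB had at most 9 counts in a library, APOA1 5, AFP 3, FGB 1 and SERPINA1 0. Of the epithelial markers, KRT7 had no count, KRT17 at most 18, and CAV1 had a mean of 6.46 CPM in control, 13.6 after siNAE1, 11.1 after siUBE2M and 8.29 after siURM1. The part of these differences in the results below was not tested. In bulk RNA, fewer cells of a type and less RNA per cell cannot be told apart.

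The summed share of the library held by the 196 genes was lower in every knockdown library than in any control library. In control libraries they held 0.308%, 0.305% and 0.306% of counts. The share was 0.235%, 0.225% and 0.225% in the siNAE1 libraries, 0.227%, 0.230% and 0.222% in the siUBE2M libraries, and 0.251% and 0.259% in the siURM1 libraries. Each siURM1 library lay above all siNAE1 and siUBE2M libraries. Relative to the control mean of 0.306 ± 0.0016% (SD, n = 3), the means were 74.6% after siNAE1 (0.228 ± 0.0054%, n = 3), 74.0% after siUBE2M (0.226 ± 0.0037%, n = 3) and 83.3% after siURM1 (0.255 ± 0.0061%, n = 2). The 234 ZNF genes of the other chromosomes, kept by the same rule, stood at 78.0%, 83.9% and 85.8% of their control share. All these shares use raw library totals, without the scaling factors between libraries (TMM) that the CPM values and fold changes carry. Those factors were 1.04 to 1.06 in control, 0.95 to 0.98 after siNAE1, 0.99 to 1.02 after siUBE2M and 0.98 after siURM1. On the scaled counts the decreases are therefore smaller than these shares show.

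**Figure D1:**
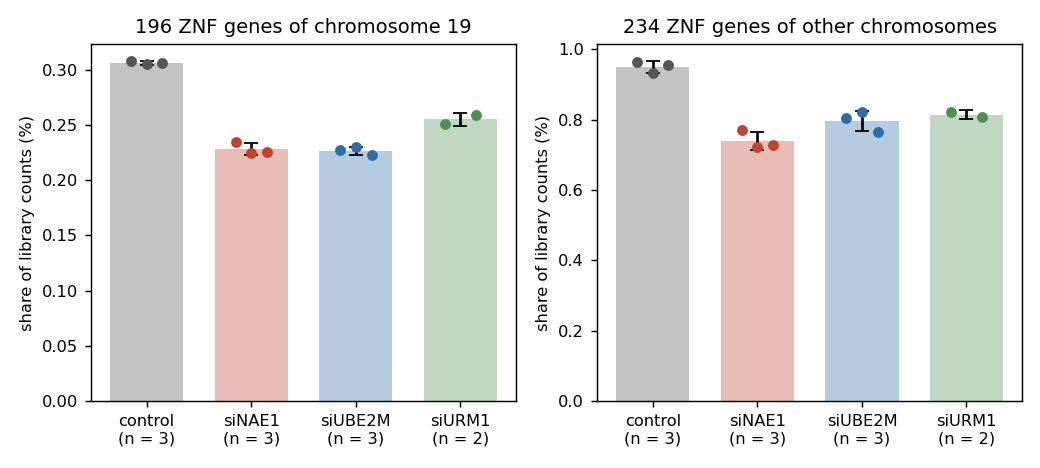
Share of library counts (%, vertical axis) held by the 196 ZNF genes of chromosome 19 (left) and by the 234 ZNF genes of other chromosomes (right) in the control, siNAE1, siUBE2M and siURM1 groups. Points are libraries, bars are group means and error bars are SD. The control libraries lie at 0.305% to 0.308% on the left, above every knockdown library.

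Single members were mostly of modest abundance, and some share fragments with other genes. The annotated span of 78 members overlapped that of another gene with at least 100 counts, and 45 shared a stretch of 100 bases with the transcript of another gene, over more than 10% of such stretches in 10 of them. The mean over all libraries had a median of 8.72 CPM, against 16.8 CPM over all genes tested, and ran from 0.606 to 161 CPM. It reached 1 CPM in 188 members and 10 CPM in 78. The median standard error of a member's log2 fold change against control was 0.15 after siNAE1, 0.15 after siUBE2M and 0.17 after siURM1.

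After siNAE1, 158 of the 196 genes (80.6%) were lower than in control and the median log2 fold change was -0.36 (SD of the median over libraries 0.030), where the median over all genes tested was -0.00. Tests were made with edgeR's quasi-likelihood test and Benjamini-Hochberg adjustment over all genes tested, and a gene was called when the adjusted p was under 0.05 and the level at least doubled or halved. By that rule 24 members (12.24%) were lower, against 8.61% of all genes tested, and 0 were higher, against 5.3%. With the trend over mean level removed 15 were called lower and 1 higher. On log2(FPKM + 1) with limma, which understates changes of weakly expressed genes, 0 were called, and 2 after siUBE2M and 0 after siURM1, although 89 had fallen after siNAE1 at an adjusted p under 0.05. Without the fold threshold 91 members had fallen, or 46.4%, where the background was 27.1%. A rise passed in 10 members, or 5.1%, where the background was 27.6%. The siNAE1 libraries lay wholly below the control libraries in 106 members, against 29.7% of all genes tested, and wholly above in 15, against 29.8%.

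After siUBE2M, 161 members (82.1%) were lower than in control and the median log2 fold change was -0.47 (SD over libraries 0.029), against 0.01 over all genes tested. Of the members 25 (12.76%) were called lower, where the background was 3.89%, and 0 higher, where it was 3.22%. At an adjusted p under 0.05 alone, 105 members (53.6%) had fallen against a background of 22.6%, and 10 (5.1%) had risen against 22.7%. The siUBE2M libraries lay wholly below control in 121 members, against 26.9% of all genes tested, and wholly above in 16, against 26.8%.

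After siURM1 the decrease was smaller. The median log2 fold change was -0.28 (SD over libraries 0.037) against -0.02 over all genes tested, with 140 members (71.4%) below control. By both thresholds 5 members (2.55%) were called lower, under the background of 4.73%, and 0 were called higher, where the background was 2.89%. At an adjusted p under 0.05 alone, 62 members (31.6%) had fallen and 18 (9.2%) had risen, and the background was 20.8% in either direction. The siURM1 libraries lay wholly below control in 96 members, against 31% of all genes tested, and wholly above in 31, against 29.8%. With 2 libraries, full separation is easier to reach than with 3. The 3 comparisons share the control libraries.

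The other genes of the same chromosome did not share the direction. The 789 protein-coding genes of chromosome 19 with other names had medians of 0.18, 0.11 and 0.13 after siNAE1, siUBE2M and siURM1. The 234 ZNF genes of the other chromosomes had medians of -0.20, -0.17 and -0.14, with 27 (11.54%), 10 (4.27%) and 2 (0.85%) genes called lower and 3, 1 and 3 called higher. Without the fold threshold 47.4%, 38% and 31.2% of them had fallen, beside 46.4%, 53.6% and 31.6% of the members, so that the shares after siNAE1 and siURM1 lay close together. A rise passed in 16.2%, 13.7% and 11.5% of them, beside 5.1%, 5.1% and 9.2% of the members. No test was made between the lists.

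Medians are given for members of different transcript composition and abundance, with no test between them. The members' canonical transcripts had a median GC content of 42.4%, against 48.7% over all genes tested, and a median length of 4065.5 bases against 2748. Within the members, the siNAE1 medians were -0.51, -0.55 and -0.15 for members of low, middle and high GC content (groups of 67, 65 and 64 genes), and -0.57, -0.34 and -0.26 for members of low, middle and high mean level (66, 65 and 65 genes). The siUBE2M medians were -0.46, -0.58 and -0.28 by GC content and -0.54, -0.54 and -0.37 by level. The siURM1 medians were -0.31, -0.27 and -0.19 by GC content and -0.28, -0.28 and -0.27 by level. With each library's trend over GC content and length removed, the member medians were -0.31, -0.48 and -0.23 for the 3 knockdowns, and 18, 23 and 5 members were called lower. The medians kept their direction, and those of siNAE1 and siURM1 were nearer to 0.

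The largest decreases after siNAE1 were mostly in weakly expressed genes, and of the 8 named here all but ZNF329 matched the KRAB pattern. ZNF471, a gene often silenced by methylation in tumours, had 3.92, 4.00 and 3.16 CPM in the control libraries and 1.08, 0.699 and 0.628 CPM in the siNAE1 libraries. The groups did not overlap, and the log2 fold change was -2.19 (SE 0.33, adjusted p = 1.19e-06). ZNF331, an imprinted gene, went from 8.94, 8.86 and 8.20 CPM to 2.53, 3.64 and 2.33 CPM, a change of -1.59 (SE 0.20, adjusted p = 2.97e-08). ZNF566 was the most abundant of those named here, with 25.4, 25.3 and 24.1 CPM in control and 9.22, 9.58 and 10.8 CPM after siNAE1. Its change of -1.34 had the smallest standard error among them (SE 0.13, adjusted p = 4.5e-10). ZNF582, whose promoter methylation is used as a tumour marker, fell by 1.32 and ZNF329 by 1.25 on the log2 scale.

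Some of the siNAE1 decreases rested on few counts. ZNF681 had 21, 18 and 36 counts in the control libraries and 4, 6 and 6 in the siNAE1 libraries, for a log2 fold change of -1.87 (SE 0.48, adjusted p = 0.00135). ZNF320 had 43, 37 and 21 counts against 9, 7 and 8, for -1.71 (SE 0.41, adjusted p = 0.000752). ZNF793 had 55, 55 and 60 counts against 23, 6 and 12, for -1.70 (SE 0.34, adjusted p = 7.38e-05). In each of these the groups did not overlap, although the siNAE1 libraries of ZNF793 differed widely among themselves. ZNF320 overlaps ZNF468 on the same strand, so fragments of one could be counted for the other.

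After siUBE2M the called members included moderately expressed genes of the distal end of the chromosome. ZNF134 had 21.4, 23.0 and 21.8 CPM in control and 8.47, 7.21 and 9.69 CPM after siUBE2M, a log2 fold change of -1.39 (SE 0.13, adjusted p = 1.05e-10). ZNF550 had 21.9, 22.9 and 24.3 CPM in control and 9.79, 7.87 and 8.85 CPM, a change of -1.38 (SE 0.12, adjusted p = 6.53e-11). Both genes kept a wide gap between the highest knockdown library and the lowest control library. ZNF790 went from 7.31, 7.99 and 7.70 CPM to 1.91, 2.89 and 2.74 CPM, the largest decrease among called members with a mean of at least 1 CPM, at -1.60 (SE 0.21, adjusted p = 2.33e-07). ZNF329 fell by 1.51, ZNF416 by 1.46, ZNF471 by 1.45, ZNF492 by 1.41 and ZNF331 by 1.38 on the log2 scale. ZNF492 shares 17.9% of its 100-base stretches with transcripts of other genes, most with ZNF98, and its counts are uncertain to that extent. ZNF550 overlaps ZNF549, ZNF416 overlaps ZIK1 and ZNF790 overlaps ZNF345 on the opposite strand, and the strand setting of the counting is not given in the sources used here.

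After siURM1 the called members were ZNF221, ZNF85, ZNF429, ZNF548 and ZNF550. Leaving out 1 library ended the call of ZNF221 (siURM1 replicate 1), ZNF429 (control replicate 3) and ZNF550 (control replicate 3 or siURM1 replicate 1). ZNF548 had 14.7, 15.6 and 15.7 CPM in control and 7.61 and 6.79 CPM after siURM1, a log2 fold change of -1.09 (SE 0.16, adjusted p = 1.29e-06). ZNF550 had 9.98 and 12.5 CPM, a change of -1.04 (SE 0.13, adjusted p = 1.74e-07). The 2 siURM1 libraries lay below all 3 control libraries in both genes. ZNF429 fell by 1.14 (SE 0.25, adjusted p = 0.000467) and ZNF221, from 40, 47 and 31 counts to 12 and 15, by 1.44 (SE 0.43, adjusted p = 0.00792).

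ZNF85 was the only member called in all knockdowns. It is a KRAB gene of the cluster on the short arm near the centromere, where ZNF429 and ZNF492 also lie. It had 3.74, 3.14 and 3.47 CPM in control, 1.69, 0.769 and 1.97 CPM after siNAE1, 1.91, 1.64 and 1.55 CPM after siUBE2M, and 1.44 and 1.18 CPM after siURM1. No knockdown library reached the lowest control library. The log2 fold changes were -1.25 (SE 0.32, adjusted p = 0.00118), -1.02 (SE 0.30, adjusted p = 0.00634) and -1.39 (SE 0.36, adjusted p = 0.00192). The siUBE2M value lies close to the fold threshold, and its call was lost without control replicate 1, siUBE2M replicate 2 or siUBE2M replicate 3 and with the trend over GC content and length removed. The siNAE1 call was lost without siNAE1 replicate 2.

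**Figure D2:**
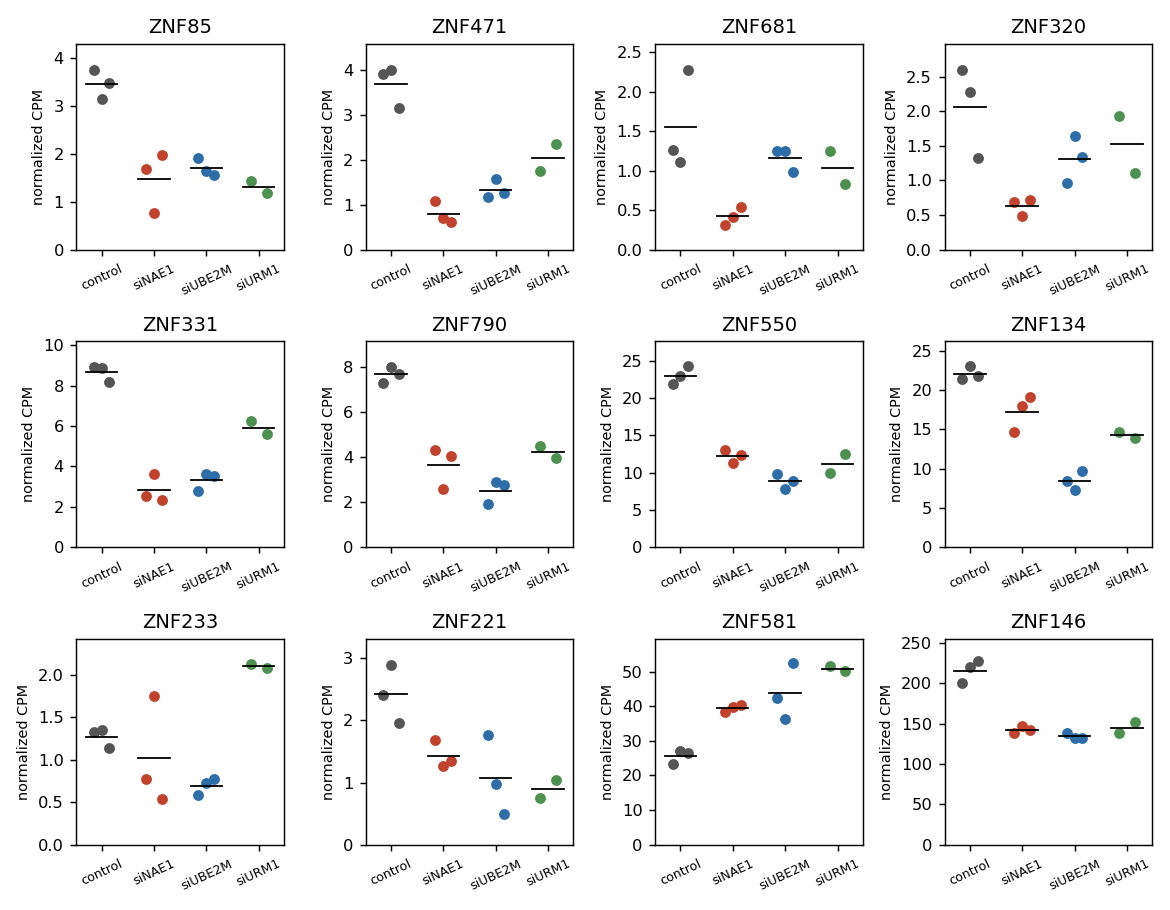
Normalized counts in CPM (vertical axes, each from 0) of 12 ZNF genes of chromosome 19 in the control, siNAE1, siUBE2M and siURM1 libraries. Points are libraries and lines are group means. ZNF85 lies below control in every knockdown library, ZNF134 is lowest after siUBE2M, ZNF681 and ZNF320 are lowest after siNAE1, and ZNF581 lies above control in every knockdown library.

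Among the most abundant members, levels per length in control were highest for ZNF146 at 51.6 ± 3.57 FPKM (counts scaled to gene length and library size, SD, n = 3), followed by ZNF428 at 31.0 ± 2.17, ZNF358 at 18.6 ± 1.56, ZNF580 at 16.4 ± 0.795, ZNF581 at 14.7 ± 1.29 and ZNF787 at 12.7 ± 0.308 FPKM. The spreads of ZNF358 and ZNF580 did not separate from each other, and neither did those of ZNF580 and ZNF581. ZNF146, a protein made almost entirely of zinc fingers without a KRAB box, had 200, 220 and 227 CPM in control. It had 138, 147 and 142 CPM after siNAE1, 139, 132 and 132 CPM after siUBE2M, and 138 and 152 CPM after siURM1. All knockdown libraries lay below all control libraries, with log2 fold changes of -0.60 (SE 0.06, adjusted p = 1.62e-09), -0.68 (SE 0.06, adjusted p = 2.06e-10) and -0.58 (SE 0.07, adjusted p = 8.37e-08). ZNF428, which has 1 finger match, fell by 0.36, 0.52 and 0.34 on the log2 scale. ZNF787 did not pass in any knockdown, at -0.06, -0.14 and 0.12.

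Some members have a described place in silencing, and they were chosen after their values were seen. ZNF274, which binds the 3′ coding ends of other zinc finger genes and recruits SETDB1 there, was among the steadiest decreases. It had 53.1, 53.4 and 52.4 CPM in control, 31.0, 31.5 and 31.0 CPM after siNAE1, 30.8, 32.5 and 26.1 CPM after siUBE2M, and 31.1 and 30.4 CPM after siURM1. Its log2 fold changes were -0.76 (SE 0.09, adjusted p = 4.73e-09), -0.83 (SE 0.09, adjusted p = 1.5e-09) and -0.78 (SE 0.10, adjusted p = 6.17e-08). ZNF91 changed by -0.65 after siNAE1 (SE 0.22, adjusted p = 0.0128), and by -0.24 and -0.15 after siUBE2M and siURM1, where it did not pass. ZNF417 and ZNF587, neighbours that repress an endogenous retrovirus family, fell by 0.68 and 0.71 after siUBE2M. After siNAE1 they were at -0.31 and -0.07 and did not pass. They share 21.7% and 14.7% of their 100-base stretches with transcripts of other genes, so their counts cannot be fully separated.

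Members that rose were few, and those named here were chosen after their values were seen, since no member was called higher against control. ZNF581, ZNF580, ZNF526 and ZNF765 rose in each knockdown at an adjusted p under 0.05. ZNF581 had 23.2, 27.2 and 26.6 CPM in control, 38.3, 39.9 and 40.4 CPM after siNAE1, 42.3, 36.3 and 52.6 CPM after siUBE2M, and 51.6 and 50.1 CPM after siURM1. Every knockdown library lay above every control library, and the log2 fold changes were 0.62, 0.77 and 0.99. ZNF580 rose by 0.49, 0.27 and 0.59, but ZNF580 and ZNF581 overlap on the same strand, so the rises of the 2 genes are not separate observations. ZNF296, a C2H2 gene known from pluripotent cells, rose by 0.94 after siNAE1 and 0.87 after siURM1, and was at 0.40 after siUBE2M, where it did not pass. ZNF526 rose by 0.56, 0.31 and 0.43, and ZNF765, which overlaps ZNF525 on the same strand, by 0.47, 0.35 and 0.45.

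In direct comparison of the knockdowns, some members differed in level between 2 siRNAs. The doses differed, so the target and the dose cannot be told apart. Against siURM1, siNAE1 gave a median of -0.12, with 8 members called lower (background 3.41%) and 0 higher (3.34%). At an adjusted p under 0.05 alone, 41 were lower (19.1%) and 11 higher (19.5%). Against siURM1, siUBE2M gave a median of -0.22, with 4 called lower (1.95%) and 0 higher (3.45%). At an adjusted p under 0.05 alone, 48 were lower (18.3%) and 5 higher (16.7%). Between siNAE1 and siUBE2M the median was 0.07, with 2 called lower in siNAE1 (4.99%) and 3 higher (2.85%). At an adjusted p under 0.05 alone, 17 were lower (21.6%) and 38 higher (22.7%). The percentages in brackets are the shares of all genes tested. Of the members, 4.08%, 2.04% and 1.02% were called lower in these contrasts in turn, and 1.53% were called higher in the last. The called shares thus lay near or below those of all genes tested.

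ZNF358 separated siNAE1 from the other knockdowns. It had 40.3, 41.0 and 35.1 CPM in control, 19.5, 19.6 and 22.5 CPM after siNAE1, 38.6, 38.1 and 42.4 CPM after siUBE2M, and 51.8 and 52.3 CPM after siURM1. The siNAE1 libraries lay below all others and the siURM1 libraries above all others, and siNAE1 against siURM1 gave -1.34 (SE 0.10, adjusted p = 2.72e-12). ZNF471 and ZNF793 were also lower after siNAE1 than after siURM1, by -1.34 (SE 0.38, adjusted p = 0.00569) and -1.32 (SE 0.38, adjusted p = 0.00558). The call of ZNF471 was lost without siURM1 replicate 2 and that of ZNF793 without siNAE1 replicate 2, and both were lost on log2(FPKM + 0.1).

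ZNF134 and ZNF773, both at the distal end, separated siUBE2M from siNAE1. ZNF134 had 14.6, 17.9 and 19.1 CPM after siNAE1, above the 8.47, 7.21 and 9.69 CPM after siUBE2M, a difference of 1.02 (SE 0.13, adjusted p = 9.82e-08). ZNF773 had 7.07, 7.55 and 5.29 CPM after siNAE1 and 2.95, 3.80 and 2.95 CPM after siUBE2M, a difference of 1.04 (SE 0.20, adjusted p = 9.42e-05). In the opposite direction, ZNF681 and ZNF320 were lower after siNAE1 than after siUBE2M, by -1.46 (SE 0.50, adjusted p = 0.0174) and -1.06 (SE 0.44, adjusted p = 0.0492). The ZNF320 difference did not pass both thresholds in 16 of the other settings tried, that of ZNF773 in 6, that of ZNF134 in 5 and that of ZNF681 in 3. Those of ZNF773 include leaving out siNAE1 replicate 1 or 2 or siUBE2M replicate 1 or 3, and those of ZNF134 leaving out siNAE1 replicate 2 or 3 or siUBE2M replicate 2.

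Between siUBE2M and siURM1, ZNF233, ZNF222 and ZNF570 were lower after siUBE2M. ZNF570 had 5.30, 5.05 and 6.39 CPM after siUBE2M and 12.7 and 10.7 CPM after siURM1, with 7.00, 8.24 and 7.95 CPM in control between them. The difference was -1.07 (SE 0.17, adjusted p = 7.25e-06), and ZNF570 had fallen by 0.47 after siUBE2M and risen by 0.60 after siURM1 against control. ZNF570 overlaps ZNF569 on the opposite strand. ZNF222 differed by -1.11 (SE 0.29, adjusted p = 0.0034), and ZNF233, with 8, 11 and 11 counts after siUBE2M and 34 and 30 after siURM1, by -1.58 (SE 0.45, adjusted p = 0.00624). The call of ZNF570 was lost without siUBE2M replicate 2 or siURM1 replicate 1, and that of ZNF222 without siURM1 replicate 2.

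Ordered by start along the chromosome and divided where more than 1 Mb separated neighbouring starts, the members formed 16 position groups. Of these, 7 held at least 10 members. After siNAE1 and siUBE2M the lowest median of these 7 was in the 25 members from ZNF565 to ZNF573 (chr19:36182060-37817300). All 25 were lower than control after siNAE1 and after siUBE2M, with medians of -0.68 and -0.76, and 19 and 22 had fallen at an adjusted p under 0.05, against 27.1% and 22.6% of all genes tested. After siURM1 the median was -0.37 and 12 had fallen, against 20.8%. This group holds ZNF146, ZNF566, ZNF790, ZNF793 and ZNF570.

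The medians of the knockdowns differed in order between position groups. In the 30 members from ZNF175 to ZNF331 (chr19:51571298-53580269) the medians were -0.32 after siNAE1, -0.16 after siUBE2M and -0.12 after siURM1. In the 23 members from ZNF575 to ZNF296 (chr19:43525497-45076588) they were -0.28, -0.68 and -0.37. In the 20 members from ZNF101 to ZNF254 (chr19:19668796-24129961), which hold ZNF85 and ZNF429, they were -0.38, -0.29 and -0.48. The order of the knockdowns is not settled there, since the direct contrast of siNAE1 with siURM1 had a median of -0.12, with 13 of the 20 lower after siNAE1. The direct contrast of siNAE1 with siUBE2M had medians of 0.34 (ZNF575 to ZNF296) and 0.25 (ZNF628 to ZNF446), against -0.16 (ZNF175 to ZNF331) and -0.18 (ZNF101 to ZNF254). These are descriptions without a test between groups. The pair ZNF574 and ZNF526 (chr19:42068477-42228201) was the only position group with a positive median in each knockdown, at 0.45, 0.24 and 0.37.

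**Figure D3:**
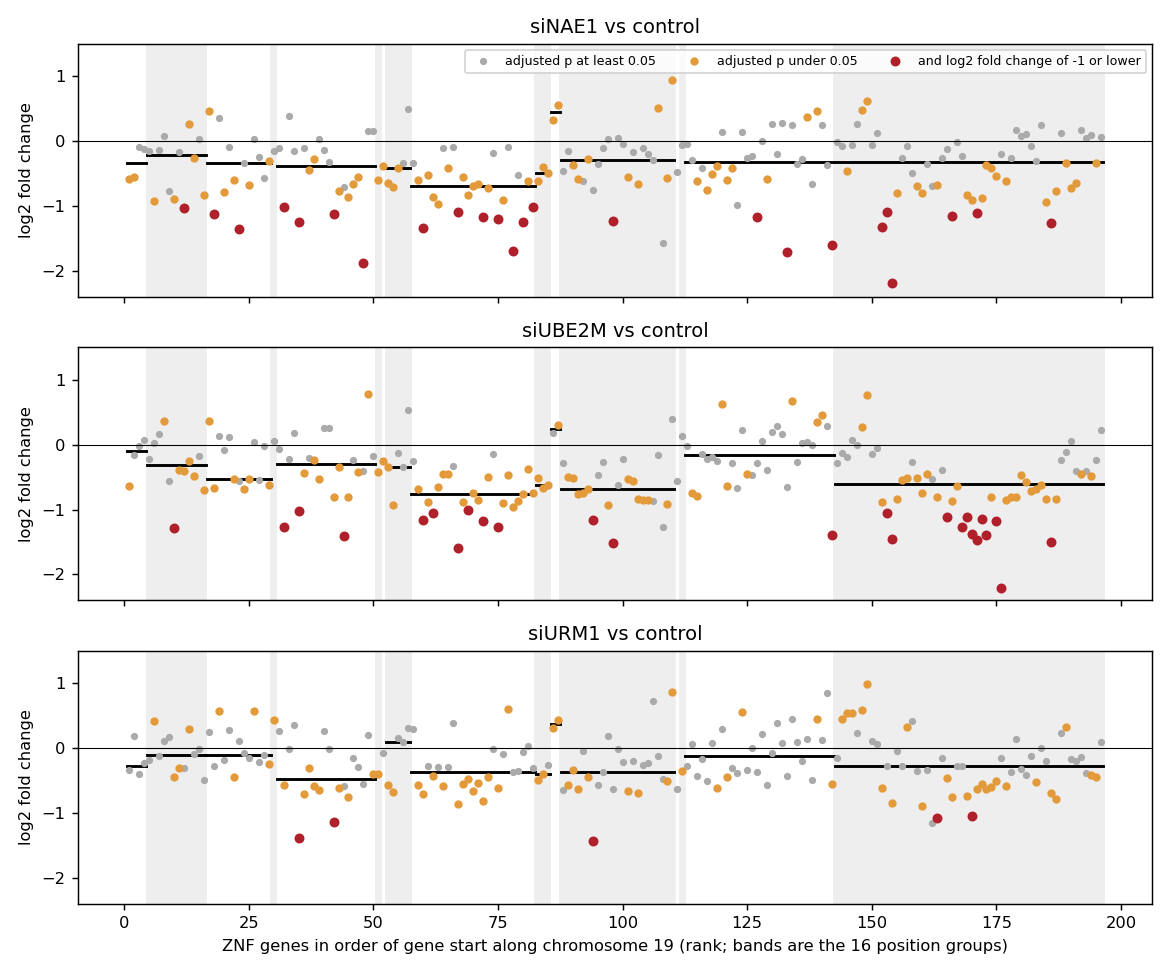
Log2 fold change against control (vertical axis) of the 196 ZNF genes in order of gene start (horizontal axis, rank) after siNAE1, siUBE2M and siURM1. Grey points had an adjusted p of at least 0.05, orange points were under 0.05 and red points were also at -1 or lower. Shaded bands separate the 16 position groups and black lines are their medians. Near the right end, 23 consecutive members fell after siUBE2M.

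The distal group of 54 members from ZNF628 to ZNF446 (chr19:55476332-58481230) held the longest unbroken run of decreases. After siUBE2M, 23 consecutive members from ZNF749 to ZNF274 (chr19:57435329-58213562) all fell at an adjusted p under 0.05, between -2.20 and -0.47 with a median of -0.85, and 10 of them were called. Of all genes tested, 22.6% had fallen and 3.89% were called lower after siUBE2M. Over the same 23 genes the median was -0.36 after siNAE1, where 12 had fallen (27.1% of all genes tested had), and -0.52 after siURM1, where 13 had fallen (20.8%). The longest such runs after siNAE1 and siURM1 were 7 genes each, and both ran from ZNF790 to ZNF585B (chr19:36817428-37218153). The stretch was found by looking for the longest run in each comparison, and several of its genes overlap or share sequence, so they are not independent.

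ZNF154, inside that run, had the lowest fitted value of any member, and it is named after its values were seen. This gene, often methylated in tumours, had 19, 28 and 17 counts in control, 15, 16 and 13 after siNAE1, 1, 3 and 8 after siUBE2M, and 18 and 18 after siURM1. The siUBE2M libraries lay below all others. The log2 fold change after siUBE2M was -2.20 (SE 0.54, adjusted p = 0.00107), against -0.20 and -0.15 after siNAE1 and siURM1, where it did not pass. Other genes of the run moved less, as ZNF587 at -0.71 and ZNF274 at -0.83 show.

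At the proximal edge of the same group, the GC-rich neighbours ZNF579, ZNF524 and ZNF865 formed the longest run of rises against control. After siURM1 they rose by 0.45 (SE 0.10, adjusted p = 0.000485), 0.55 (SE 0.17, adjusted p = 0.00999) and 0.54 (SE 0.11, adjusted p = 9.85e-05). After siNAE1 they were at -0.07, -0.45 and -0.06, of which ZNF524 had fallen, and after siUBE2M at -0.12, -0.20 and 0.07. ZNF579 had 32.3, 30.6 and 26.5 CPM in control and 41.7 and 39.9 CPM after siURM1. The transcripts of the 3 genes have 66.0%, 69.1% and 70.9% GC, far above the members' median of 42.4%.

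UBE2M itself lies on chromosome 19 beyond the last member, and TRIM28 lies next to it. The 6 members nearest to the start of UBE2M were ZNF446, ZNF324, ZNF324B, ZNF132, ZNF584 and ZNF837. After siUBE2M their log2 fold changes were 0.23, -0.23, -0.48, -0.40, -0.45 and -0.40, and none was called, where 3.89% of all genes tested were called lower and 3.22% higher, so that 0 of 6 does not set these genes apart. UBE2M itself fell by 3.98. ZNF324B (SE 0.12, adjusted p = 0.0018) and ZNF584 (SE 0.11, adjusted p = 0.000933) had fallen at an adjusted p under 0.05, or 2 of the 6, where the background was 22.6%. ZNF324 shares 33.0% of its 100-base stretches with transcripts of other genes, most with ZNF446, which it overlaps.

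By protein features, members with the KRAB pattern had lower medians than members without it, at -0.41 and -0.27 after siNAE1, -0.49 and -0.40 after siUBE2M, and -0.28 and -0.22 after siURM1. The KRAB pattern was present in 22 of the 24 members called after siNAE1, 18 of the 25 after siUBE2M and 4 of the 5 after siURM1, and in 139 of all 196. Of the 57 members without it, 21 lie in the position group from ZNF575 to ZNF296, which holds the cluster from ZNF221 to ZNF235, whose KRAB boxes the pattern misses. Outside that position group the medians were -0.41 (137 members with the pattern) and -0.26 (36 without) after siNAE1, -0.48 and -0.25 after siUBE2M, and -0.28 and -0.16 after siURM1. Members with 1 to 9 fingers had medians of -0.26, -0.29 and -0.13, those with 10 to 14 had -0.41, -0.47 and -0.30, and those with 15 or more had -0.41, -0.53 and -0.25. These features move with position and GC content, and their part in the decrease was not tested. The 151 members without a 100-base stretch in common with the transcript of another gene had medians of -0.41, -0.47 and -0.27, and the 45 with one had -0.26, -0.48 and -0.28.

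RefSeq promoters, from 250 bases before to 50 bases after the start, matched 176 of the members with 220 promoters. GGGCGG, on either strand, was present in 61.4% of them, 45.0% of all promoters of the table and 65.6% of those of expressed protein-coding genes. The 57 members without it in any promoter were all lower after siUBE2M, with a median of -0.58, and 40 had fallen while 0 had risen at an adjusted p under 0.05, against 22.6% and 22.7% of all genes tested. The 119 members with it had a median of -0.40, with 55 fallen and 9 risen. After siNAE1 the medians were -0.41 without and -0.35 with the letters, and after siURM1 -0.33 and -0.21. Over all protein-coding genes tested the siUBE2M medians were 0.01 without and 0.02 with them. Most of the 57 members lie in the position groups from ZNF565 to ZNF573, ZNF575 to ZNF296 and ZNF628 to ZNF446. Those groups had the lowest siUBE2M medians among groups of at least 10 members, at -0.76, -0.68 and -0.60. The letters move with position, and their part in the decrease was not tested. The other motifs were rare in every list. ACTACAAT occurred in 4 of the 220 member promoters (1.82%), 1.92% of those of ZNF genes on other chromosomes, 0.707% of those of expressed protein-coding genes and 0.638% of all. AAGATGGCG occurred in 3.64%, 2.68%, 3.21% and 1.75% of these lists, TGACGTCA in 3.64%, 3.07%, 2.67% and 1.85%, and TGATGCAA in 0.455%, 0.383%, 0.537% and 0.866%. A match describes letters in a window and not a bound site.

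The corepressors through which KRAB proteins act showed no common direction. All 26 genes of that list were tested, and the only call against control was CBX5, the gene of HP1 alpha, at -1.20 after siNAE1 (SE 0.06, adjusted p = 1.38e-16). TRIM28 rose by 0.51 after siNAE1 and was at 0.10 and 0.08 after siUBE2M and siURM1. SETDB1 fell by 0.51 after siNAE1 and was at -0.08 and -0.03. Between knockdowns FAM208A was called, at 1.24 for siUBE2M against siURM1 and -1.23 for siNAE1 against siUBE2M. Against control it was at -0.47, 0.77 and -0.47 after siNAE1, siUBE2M and siURM1. At an adjusted p under 0.05, 12 of the 26 had risen and 11 fallen after siNAE1, 13 and 5 after siUBE2M, and 4 and 10 after siURM1, with medians of -0.06, 0.13 and -0.06. Of all genes tested, 27.6% had risen and 27.1% fallen after siNAE1, 22.7% and 22.6% after siUBE2M, and 20.8% in either direction after siURM1.

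Zinc finger genes of the chromosome with other names went both ways. Of 19 such genes 10 were tested, with medians of -0.12, -0.13 and -0.21 after siNAE1, siUBE2M and siURM1. After siNAE1 4 of the 10 had fallen and 3 had risen at an adjusted p under 0.05, where the backgrounds were 27.1% and 27.6%. After siUBE2M 3 had fallen and 2 had risen, against 22.6% and 22.7%, and after siURM1 3 had fallen and 3 had risen, against 20.8% each. By the fold rule 2, 1 and 0 were called lower and 0 higher. ZSCAN18 changed by -1.09, -1.20 and -0.91 after siNAE1, siUBE2M and siURM1, and ZFP30 by -1.08, -0.70 and -0.61. ZSCAN18 lies within the stretch of the 23 consecutive decreases. The others included rises, such as ZBTB7A at 0.67, 0.30 and 0.39.

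At the edge of the abundance rule, ZNF285 and ZNF575 were just inside with 102 and 108 counts in all, and ZNF442 and ZNF709 just outside with 91 and 90. Their fitted values against control ranged from -1.56 for ZNF285 after siNAE1 to 0.98 for ZNF709 after siURM1.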

How the data were processed

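Poly(A) RNA was sequenced as paired-end strand-specific libraries. The authors trimmed reads with fastp, aligned them with HISAT2 2.0.5 to GRCh38 and counted fragments per gene with featureCounts 1.5.0-p3. The annotation version, strand setting and treatment of multi-mapped reads are not given in the sources used here. The deposited counts are raw whole numbers, and the authors also deposited FPKM values, which scale the counts to gene length and library size. A single read pair can match several paralogous zinc finger genes, so counts of near-identical members are uncertain. Totals of 11733163 to 16321391 counts per library limit the precision of members at few CPM.

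The counts were tested with edgeR 4.0.16 (quasi-likelihood test, TMM scaling, filterByExpr, all 11 libraries in 4 groups without covariates, R 4.3.3) with Benjamini-Hochberg adjustment over 18368 genes. Calls required an adjusted p under 0.05 together with a log2 fold change of 1 or more in either direction. CPM values are TMM-scaled. The script was tested on simulated data. Same-numbered libraries were checked for pairing by the correlation of their deviations from group means, which ran from -0.066 to 0.079, so the numbers were treated as names.

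Members named were the 8 lowest and 8 highest called per knockdown with a mean of at least 1 CPM, those called in all knockdowns, the 3 lowest and 3 highest called per pair of knockdowns, the 6 with the highest control FPKM, the 6 nearest to UBE2M and 2 on each side of the abundance rule. Others are said to be chosen after their values were seen. The members and all lists were chosen with earlier results of these data known. Fingers, linkers and KRAB patterns were counted in translations of GENCODE v44 canonical coding sequences, since no protein table was used here. The C2H2 pattern was 2 cysteines 2 to 4 residues apart, 12 residues, and 2 histidines 3 to 5 residues apart. GC content and length are of the same transcripts. Promoters are RefSeq sequences on GRCh38. The alternatives were DESeq2 1.42.0, RLE scaling, no filter and a filter of 10 counts in every library, a replicate block, 2 groups per fit, limma 3.58.1 on log2(FPKM + 1) and log2(FPKM + 0.1), no fold threshold, members with 500 or more counts, other gaps between position groups, and each library left out. Removal of trends over GC content and length, or over mean level, was added after seeing the data, as were the search for runs of consecutive members and the KRAB comparison without the position group of ZNF221.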

Additional observations from a re-analysis of the deposited data

Results flagged for a closer look

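Each value here was singled out because the direct contrast of 2 knockdowns passed both thresholds (edgeR's quasi-likelihood test, Benjamini-Hochberg adjustment). The level of the gene thus differed between the 2 siRNAs. In some, such as ZNF358 and ZNF570, the 2 knockdowns lay on opposite sides of control. Between siNAE1 and siURM1 the log2 differences were -1.34 for ZNF358, -1.34 for ZNF471 and -1.32 for ZNF793. Between siUBE2M and siURM1 they were -1.58 for ZNF233, -1.11 for ZNF222 and -1.07 for ZNF570. Between siNAE1 and siUBE2M they were 1.02 for ZNF134, 1.04 for ZNF773, -1.46 for ZNF681 and -1.06 for ZNF320. ZNF233, ZNF681 and ZNF320 rest on fewer than 50 counts in every library. The siRNA doses differ between the knockdowns, so dose and target cannot be told apart, and siURM1 has 2 libraries. Leaving out 1 library ended the call of ZNF471, ZNF793, ZNF222, ZNF570, ZNF134, ZNF773, ZNF681 and ZNF320, and that of ZNF320 was lost in 16 settings in all.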

How the results depend on the processing

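No direction reversed. On log2(FPKM + 1) with limma, which understates changes of weakly expressed genes, the members called fell to 0 (siNAE1), 2 (siUBE2M) and 0 (siURM1) against control, and to 1, 0 and 0 for siNAE1 and siUBE2M against siURM1 and siNAE1 against siUBE2M, with medians of -0.20, -0.26, -0.14, -0.069, -0.12 and 0.033. With log2(FPKM + 0.1) the pairs siNAE1 against siURM1 and siNAE1 against siUBE2M had 3 and 1 calls. Without a fold threshold the calls in both directions were 101, 115, 80, 52, 53 and 55. A filter of 10 counts in every library left 4, 2 and 2 calls in the 3 pairs of knockdowns and a median of -0.19 for siUBE2M against siURM1, and a minimum of 500 counts left 3 for siURM1, 3, 2 and 2 in the pairs, and a median of -0.33 for siNAE1. Fewer members are tested there. With the trend over GC content and length removed the medians were -0.31 (siNAE1), -0.23 (siURM1), -0.25 (siUBE2M against siURM1) and 0.090 (siNAE1 against siUBE2M), and with the trend over mean level removed -0.32 (siNAE1), with 15 members called lower and 1 higher in place of 24 and 0. Of the FPKM of all genes, the members held 0.218% in control, 0.161% after siNAE1, 0.168% after siUBE2M (77.1% of the control share) and 0.180% after siURM1. A gap of 2 Mb gave 9 position groups. The cause of these shifts was not tested.

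Leaving out each library in turn, the calls ranged from 20 to 25 (siNAE1), 21 to 27 (siUBE2M), 5 to 9 (siURM1), 5 to 9 (siNAE1 against siURM1), 3 to 6 (siUBE2M against siURM1) and 3 to 6 (siNAE1 against siUBE2M), and the medians from -0.40 to -0.35, -0.48 to -0.46, -0.30 to -0.24, -0.20 to -0.078, -0.27 to -0.22 and 0.049 to 0.067. These counts add both directions: for siURM1 they hold 8 lower and 1 higher without siURM1 replicate 2 and 3 lower and 2 higher without control replicate 3, in place of 5 and 0. The 9 calls of siURM1 came without siURM1 replicate 2, and then and without its replicate 1 the lone library is assumed to vary like the other groups. The 5 calls of siNAE1 against siURM1 came without siURM1 replicate 1, and the 3 of siNAE1 against siUBE2M without siNAE1 replicate 2 or siUBE2M replicate 2. With a replicate block the calls were 24, 25, 6, 8, 4 and 4, although the libraries share only a number. For the named genes, 1503 of 1603 values kept direction and side of the threshold, 91 fell short of it and 9 passed it.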
